A study of Mus musculus with 4 samples.

Results

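The 10 genes described here are Wnt targets (Lef1, Axin2 and Sp5), Wnt antagonists (Apcdd1, Wif1 and Dkk2), the R-spondin axis (Rspo1, Lgr4 and Lgr5) and the Wnt receptor Fzd10. They were chosen by name for their place in the pathway, but with earlier results of these data known. Shares of all genes given beside counts of members are therefore a description only. The members are 10 of the 30406 genes listed at all stages. The cells came from mammary glands of wild-type female C57B6 mice (C57 B6/N in the study's methods) at 3 embryonic ages (E13.5, E14.5, E15.5) and at birth (P0), pooled at each stage over embryos of several dams. EpCAM-positive epithelial and EpCAM-negative mesenchymal cells were sorted without CD45, CD31 or Ter119 cells, and 1 droplet-based 3′ library was made per stage. Stage and library therefore cannot be told apart. The tissues share a library at each of the 4 stages, but those are 4 different ages and an exact sign-flip test over 4 pairs cannot go below p = 0.125, so no test between tissues was run either. Every interval below is an exact 95% interval that covers counting error only. Where a side had 0 UMIs, a fold difference given as at least some value sets that side to 3 UMIs. The lower limit of the exact interval is then smaller.

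Wnt ligands bind a Frizzled receptor with its Lrp5 or Lrp6 co-receptor, which stabilizes beta-catenin. Beta-catenin then joins TCF and LEF factors on target genes, and several of those targets, such as Axin2 and Apcdd1, feed back to damp the pathway. R-spondins bind Lgr receptors and spare Frizzled receptors from removal, and Wnt signals between epithelium and the mesenchyme under it are needed to form and maintain the mammary bud.

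Cells with at least 5000 UMIs (unique transcript counts) and at most 6% mitochondrial UMIs were kept, which left 235, 76, 816 and 503 cells from E13.5 to P0, with 2111282 to 21559040 UMIs per library. A cell was epithelial or mesenchymal by the larger of its summed keratin and Epcam UMIs and its summed fibrillar collagen UMIs. This gave 98, 45, 532 and 230 epithelial and 135, 31, 283 and 273 mesenchymal cells from E13.5 to P0, and 2 cells were tied at E13.5 and 1 at E15.5. Check markers kept out of that rule were higher in their own tissue for 7 of 7 genes in each tissue and stage, except that Krt7 had 0 epithelial UMIs at E14.5. Mesenchymal check markers reached a median of 0.298% to 0.668% of their mesenchymal level in epithelial cells (largest 17.1%, Postn at E13.5), and epithelial markers 0.502% to 3.30% in mesenchymal cells. Those percentages are the background against which a low level in the other tissue should be read. Median depth per cell was similar between the tissues of a stage but lower at P0, at 9973 and 8743 UMIs, than in the 6 embryonic groups, at 16438 to 26725.

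Promoters were searched for letters that TCF and LEF factors favour. The letters CTTTGAA, their variant CTTTGAT, and likewise the letters CTTTGTA with their variant CTTTGTT were searched on both strands in RefSeq promoter windows (GRCm38.p6) of 300 bases, from 250 before to 50 after each gene start. Windows of 8 of the 10 genes were searched (Lgr5 had none, and Apcdd1 was left out of the search). Of their 11 windows 2 (18.2%) held a match, 1 each of Sp5 and Lef1, close to the 5544 of all 32851 windows (16.9%). A match is a description of letters and not a binding site. All matches found are shown, with capitals for the motif letters, read on the plus strand.
Sp5, chr2:70474691-70474717, 222 bases before the gene start, reverse of CTTTGTT: tcctagagatAACAAAGacactttgtc
Sp5, chr2:70474809-70474835, 104 bases before the gene start, CTTTGAT: gcaaggccccCTTTGATcaggaaaatc
Lef1, chr3:131156137-131156163, 147 bases before an alternative start that lies 45823 bases inside the gene (its other 3 windows, nearer to the gene start, held no match), reverse of CTTTGTA: aacctcagaaTACAAAGtaggattgca

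Most of the 10 genes were higher in the mesenchyme before birth. Levels are given as UMIs per 1000000 UMIs of a group of cells (CPM), and, as reads came from the 3′ end, are compared between groups and not between genes. At E13.5, 7 of the 10 genes were at least 2-fold higher in mesenchymal cells (Axin2, Sp5, Apcdd1, Wif1, Dkk2, Lgr5 and Rspo1), where 21.9% of all genes with at least 20 UMIs were, and 1 (Lef1) was at least 2-fold higher in epithelial cells, where 10.3% were. The Lef1 call at E13.5 lay at the threshold, with a log2 ratio of 1.04 that ranged from 0.64 to 1.24 over the alternatives and ended under 5 of them, and the Lgr5 call ended under 3 and could not be made after thinning, which left too few UMIs. At E14.5 the counts were 6 in mesenchyme (17.5% of all genes) and 2 in epithelium (14.7%), and at E15.5 they were 6 (22.5%) and 3 (16.8%). All 10 genes passed the UMI minimum at these stages. The median log2 difference of the 10 genes, epithelial minus mesenchymal, was -2.75, -2.42 and -3.90, beside -0.18, 0.02 and -0.10 for all genes. At P0 only Apcdd1, Dkk2, Lgr4 and Lgr5 passed the minimum, 1 of these 4 (Dkk2) was at least 2-fold higher in mesenchyme (18.9% of all genes) and 0 in epithelium (24.7%).

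**Figure D1:**
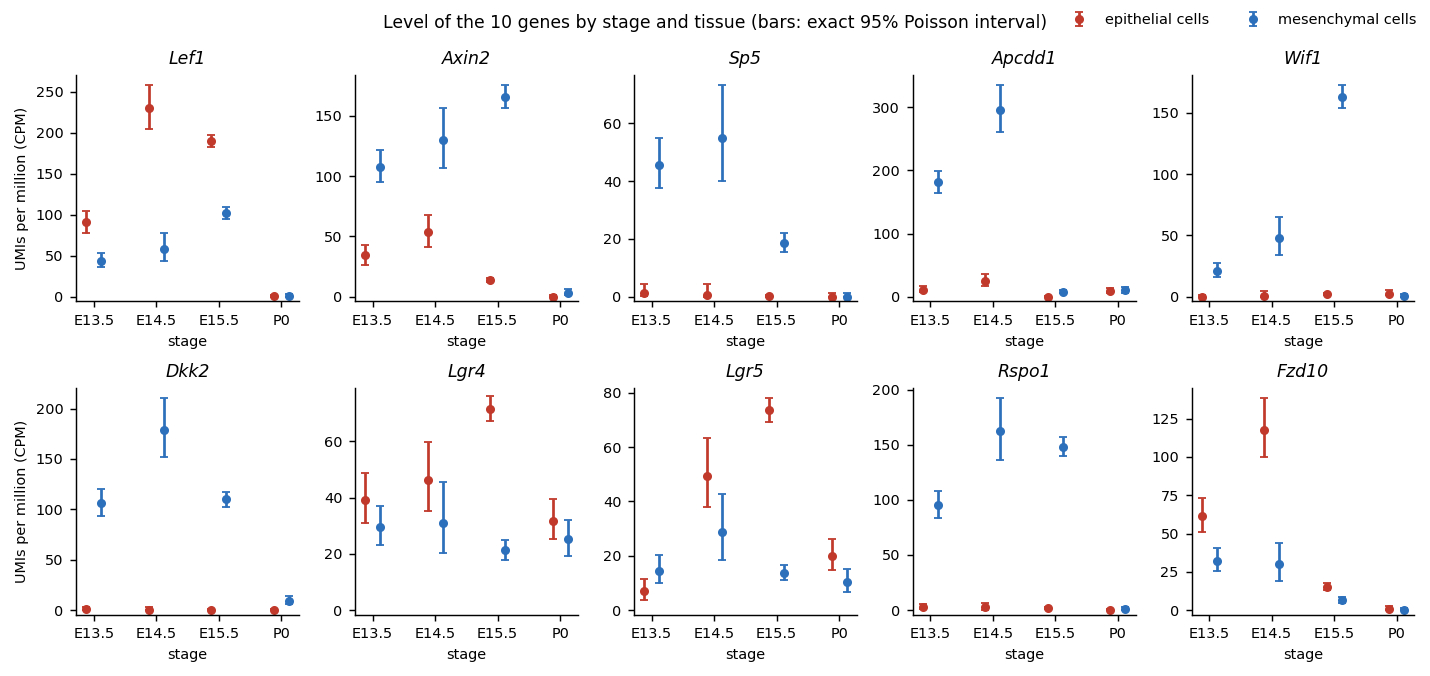
Level of each of the 10 genes in UMIs per 1000000 UMIs of the group (CPM, linear axis from 0, 1 scale per gene) by stage, with epithelial cells in red, mesenchymal cells in blue and exact 95% Poisson intervals as bars. Sp5, Wif1, Dkk2 and Rspo1 stayed at 2.45 CPM or below in the epithelial cells of all embryonic stages, and most genes sat near 0 at P0.

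Among the target genes, Lef1 and Axin2 were highest in opposite tissues. Lef1 (chromosome 3, 131110471 to 131224356, GRCm38), a factor through which beta-catenin acts and also a target of the pathway, had 90.6, 230 and 190 CPM in epithelial cells over the embryonic stages in order, and 44.0, 58.5 and 102 CPM in mesenchymal cells. At P0 it had 0.382 CPM (1 UMI) in epithelium and 1.20 CPM (3 UMIs) in mesenchyme. Epithelial cells were thus higher at every embryonic stage, and the gene was close to absent at birth in both tissues. The epithelial level was 2.06-fold (1.61 to 2.64), 3.94-fold (2.90 to 5.44) and 1.85-fold (1.71 to 2.01) the mesenchymal one. In the order of the 8 groups, the E15.5 mesenchymal and E13.5 epithelial levels did not differ beyond their intervals, and neither did E14.5 and E13.5 mesenchyme. Lef1 was also widely detected, with a UMI in 95.6% of the E14.5 and 88.2% of the E15.5 epithelial cells (64.4% and 52.1% with each cell thinned to 5000 UMIs, beside 22.6% and 31.8% of mesenchymal cells).

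Axin2 (chromosome 11, 108920349 to 108950783), the scaffold of the beta-catenin destruction complex and the pathway's usual feedback reporter, had 108, 130 and 166 CPM in mesenchymal cells at the embryonic stages and 34.3, 53.4 and 13.9 CPM in epithelial cells. The P0 levels were 3.19 CPM (8 UMIs) in mesenchyme and 0 UMIs in epithelium. Mesenchyme was higher at each embryonic stage, by 3.15-fold (2.41 to 4.16), 2.44-fold (1.78 to 3.35) and 11.97-fold (10.3 to 13.98). The widening at E15.5 came with a lower epithelial level, 3.86-fold (2.88 to 5.10) below E14.5, while the mesenchymal level was 1.28-fold (1.05 to 1.57) above it. Epithelial Axin2 stood well above the background, at 31.8%, 41.1% and 8.35% of the mesenchymal level. Lef1 is overlapped on its own strand by Gm42449, and the part of reads shared with it was not tested. On the opposite strand, Gm11670 overlaps Axin2, as Gm43352 does Lef1, A930009A15Rik Lgr5 and Gm12930 Rspo1.

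Sp5 (chromosome 2, 70474923 to 70477729), a zinc-finger transcription factor switched on directly by Wnt signals, was the most mesenchymal of the 3 targets. It had 45.7, 54.9 and 18.6 CPM in mesenchymal cells of the embryonic stages and 1.47, 0.785 and 0.280 CPM in epithelial cells, and 0 UMIs in both tissues at P0. The epithelial counts were 3, 1 and 4 UMIs, so the ratios, 31.1 (10.4 to 153), 69.9 (11.9 to 2820) and 66.4 (25.4 to 247), carry wide intervals. Epithelial Sp5 was 1.43% to 3.22% of the mesenchymal level. From E13.5 to E15.5 it lay above the median of the mesenchymal check markers (0.426%, 0.298% and 0.668%) and below the largest (17.1%, 7.26% and 2.72%). On 3, 1 and 4 UMIs it could not be told whether epithelial Sp5 was above background. In mesenchyme Sp5 was 2.95-fold (2.06 to 4.15) lower at E15.5 than at E14.5, unlike Axin2. Its UMIs were unevenly spread: at E13.5 the 14 cells with the most Sp5 held 73.6% of 110 UMIs, and the top cell held 23.

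**Figure D2:**
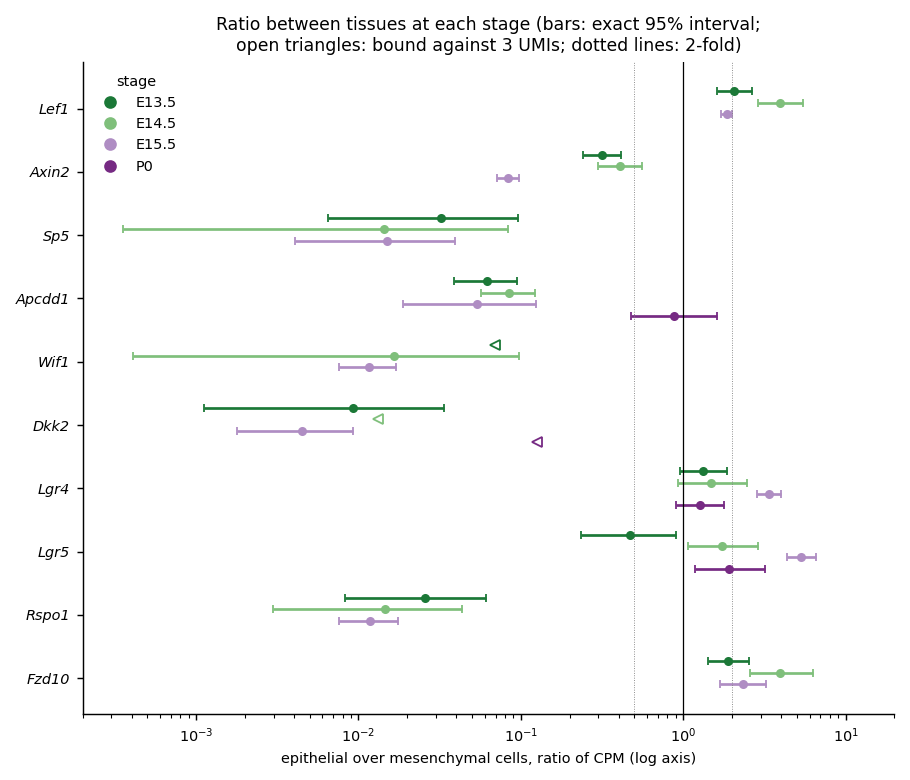
Ratio of the epithelial to the mesenchymal level (CPM) of each gene at each stage on a log axis, for genes with at least 20 UMIs over both tissues, with exact 95% intervals as bars and open triangles for bounds against 3 UMIs. Lef1, Lgr4 and Fzd10 lay right of 1 at each stage shown, Lgr5 did so from E14.5 on, and the other 6 genes lay left of it.

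The antagonists were mesenchymal before birth. Apcdd1, a membrane protein that binds Wnt and Lrp proteins and is itself a Wnt target, had 181 and 296 CPM in mesenchymal cells at E13.5 and E14.5 and 7.85 CPM at E15.5. Epithelial cells had 11.3, 25.1 and 0.420 CPM, and at P0 the levels were 9.97 CPM in mesenchyme and 8.80 CPM in epithelium. Mesenchyme was higher within each embryonic library, by 16.1-fold (10.6 to 25.7), 11.8-fold (8.13 to 17.6) and 18.7-fold (8.08 to 53.1), whereas the P0 tissues differed by 1.13-fold (0.617 to 2.09).

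The low Apcdd1 level at E15.5 cannot be told apart from how that library's table was made. From E14.5 to E15.5 it was 59.9-fold (24.7 to 175) lower in epithelium and 37.7-fold (28.2 to 51.2) lower in mesenchyme. Only 10 of 10437 genes (0.0958%) were at least 20-fold lower in both tissues, and 0 were as much higher. The other 9 were Cpne1, Mrpl53, Gt(ROSA)26Sor, Fdx2, Rnasek, Hgs, Gm11361, Atp6v0c and Fads2. Atp6v0c, a proton pump subunit that most cells use, went from 223 and 192 CPM (epithelium and mesenchyme) to 3.64 and 3.17 CPM and was back at 326 and 215 CPM at P0. The E15.5 table alone names Cell Ranger 3.1.0 in its header, and its list has 31053 genes against 32285. Apcdd1 stands in the counts between stages given for all 10 genes, and those that involve E15.5 carry this limit.

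Wif1 (chromosome 10, 121033960 to 121100650), which binds Wnts outside the cell, had 21.2, 47.7 and 163 CPM in mesenchymal cells from E13.5 to E15.5. Epithelial cells had 0, 0.785 (1 UMI) and 1.89 CPM, and the P0 levels were 2.68 CPM (7 UMIs) in epithelium and 0.399 CPM (1 UMI) in mesenchyme. Mesenchymal Wif1 was thus high before birth, differing 7.70-fold (5.81 to 10.4) between E13.5 and E15.5, with none of the 3 embryonic levels overlapping. Mesenchyme exceeded epithelium by 14.4-fold at E13.5 with 0 epithelial UMIs set to 3 (exact lower limit 11.3). At E14.5 it did so by 60.8-fold (10.3 to 2460) and at E15.5 by 86.3-fold (59.0 to 131).

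Dkk2 (chromosome 3, 132085292 to 132180304), a secreted protein that binds Lrp co-receptors, had 106, 179 and 110 CPM in embryonic mesenchyme and 9.17 CPM (23 UMIs) at P0. Epithelial cells had 2, 0, 7 and 0 UMIs from E13.5 to P0. Mesenchyme was 108-fold (29.6 to 897) higher at E13.5 and 224-fold (108 to 559) at E15.5. With 0 epithelial UMIs set to 3, it was 76.0-fold higher at E14.5 (exact lower limit 61.0) and 7.99-fold at P0 (5.99). Of the 10 genes Dkk2 had the highest point value at each embryonic stage, but its interval overlapped that of Sp5 at each of them. Dkk2 was also concentrated in few cells. At E15.5 the 29 mesenchymal cells with the most Dkk2 held 65.1% of its 797 UMIs, and at E14.5 the top cell held 37 of 150.

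Cells with UMIs of the pericyte markers Rgs5, Kcnj8 and Abcc9 carried part of that signal. With at least 3 such UMIs, 9, 5, 5 and 24 mesenchymal cells from E13.5 to P0 held 27 of 255, 40 of 150, 34 of 797 and 2 of 23 Dkk2 UMIs, and 9 of 35, 12 of 24, 14 of 100 and 5 of 26 Lgr5 UMIs. Values without these cells are given below for the Lgr5 ratios between tissues and within embryonic mesenchyme, and for the E15.5 Dkk2 ratio within mesenchyme. The other Dkk2 and Lgr5 values include these cells.

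In the R-spondin axis the ligand and its receptors were highest in opposite tissues. Rspo1 (chromosome 4, 124986430 to 125009099), the ligand, had 95.1, 162 and 148 CPM in embryonic mesenchyme and 2.45, 2.36 and 1.75 CPM in epithelium. At P0 it had 0.798 CPM (2 UMIs) in mesenchyme and 0 UMIs in epithelium. Mesenchyme was higher by 38.8-fold (16.4 to 121), 68.9-fold (23.1 to 338) and 84.7-fold (57.1 to 132), and the E14.5 and E15.5 mesenchymal levels did not differ beyond their intervals. Epithelial Rspo1 was 1.18% to 2.58% of the mesenchymal level. That lay within the range of the mesenchymal check markers but above their median at each embryonic stage (0.426%, 0.298% and 0.668%).

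Lgr4 (chromosome 2, 109917647 to 110014257), a broadly expressed R-spondin receptor, had 39.2, 46.3, 71.6 and 31.7 CPM in epithelial cells from E13.5 to P0 and 29.5, 31.0, 21.2 and 25.1 CPM in mesenchymal cells. It was the most even of the 10 genes over tissue and time. Only the E15.5 epithelial level stood apart from its neighbour in the order of the 8 groups, and the other 7 formed a run in which no neighbours differed beyond their intervals. The tissue ratio was 3.38-fold (2.85 to 4.03) in favour of epithelium at E15.5, and its intervals included 1 at E13.5 (0.953 to 1.86), E14.5 (0.927 to 2.47) and P0 (0.900 to 1.78).

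Lgr5 (chromosome 10, 115450311 to 115587780), an R-spondin receptor, Wnt target and stem cell marker in several epithelia, had 6.86, 49.5, 73.5 and 19.9 CPM in epithelial cells and 14.53, 28.6, 13.8 and 10.4 CPM in mesenchymal cells. Its epithelial level differed 7.22-fold (3.999 to 13.9) between E13.5 and E14.5 and 10.7-fold (6.36 to 19.7) between E13.5 and E15.5, and at P0 it was 3.70-fold (2.80 to 4.98) below E15.5. The embryonic ratios also carry a changing mix, as 65 of 98, 20 of 45 and 173 of 532 epithelial cells were nearer to epidermal markers. In the mammary range described below, Lgr5 had 14 of 559023, 42 of 644894 and 831 of 9447435 UMIs. The ratio of epithelium to mesenchyme was 0.472 (0.235 to 0.900), 1.73 (1.06 to 2.89), 5.34 (4.35 to 6.62) and 1.92 (1.18 to 3.20). Epithelial cells as a whole were thus lower at E13.5 and higher at the other stages. The E13.5 and E14.5 ratios rest on few cells. In mesenchyme, the 14 cells with the most Lgr5 held 97.1% of 35 UMIs at E13.5. At E14.5 the top 4 held 91.7% of 24. At E13.5 the epithelial total was 14 UMIs in 6 cells, all among the 33 cells nearer to the mammary markers described below. The 65 cells nearer to epidermal markers held 0. Those 33 mammary range cells had 2.42-fold (1.02 to 5.90) the Lgr5 level of the sub-epithelial range of mesenchyme, also described below. Against the dermal range of mesenchyme the ratio was 1.40 (0.670 to 2.82). Without pericyte-list cells the Lgr5 log2 ratio was -0.78 in place of -1.08 at E13.5, where the gene was then no longer 2-fold apart, 1.51 in place of 0.79 at E14.5, and 2.62 and 1.08 in place of 2.42 and 0.94 at the later stages.

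Fzd10 (chromosome 5, 128600844 to 128604093), a Wnt receptor, had 61.2, 118 and 15.4 CPM in embryonic epithelium and 32.4, 29.8 and 6.61 CPM in mesenchyme, with 2 and 0 UMIs at P0. Epithelium was higher by 1.89-fold (1.41 to 2.54), 3.95-fold (2.57 to 6.30) and 2.33-fold (1.70 to 3.25). From E14.5 to E15.5 Fzd10 was 7.65-fold (6.18 to 9.46) lower in epithelium and 4.51-fold (2.67 to 7.46) lower in mesenchyme. Of 10437 genes, 663 (6.35%) were at least 2-fold lower in both tissues at E15.5, Apcdd1 and Fzd10 among them, and 193 were at least 2-fold higher in both. All genes together had a median log2 difference of E14.5 minus E15.5 of 0.28 in epithelium and 0.22 in mesenchyme. The part of the other processing of the E15.5 library in these differences was not tested.

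Most of the 10 genes were far lower at birth than at E15.5. In mesenchyme 7 of 10 genes were at least 2-fold higher at E15.5 (28.2% of all genes) and 0 at P0 (14.3%), and in epithelium 5 of the 8 tested were higher at E15.5 (18.5%) and 1 at P0 (15%), which was Apcdd1, with the limit given above. Epithelial Lef1 was 496-fold (88.9 to 19585; 1 UMI at P0) and mesenchymal Axin2 52.0-fold (26.3 to 121) higher at E15.5, mesenchymal Dkk2 11.97-fold (7.92 to 19.0) and Rspo1 186-fold (51.3 to 1536; 2 UMIs at P0). Mesenchymal Lgr4 and Lgr5 had ratios of 0.844 (0.626 to 1.15) and 1.33 (0.856 to 2.13). The intervals of both receptors included 1. All genes together also shifted, with a median log2 difference of E15.5 minus P0 of 0.42 in mesenchyme and 0.11 in epithelium, against 3.77 and 1.53 for the members tested. Between E13.5 and P0, 8 of 10 genes were higher at E13.5 in mesenchyme (35.8% of all genes), and in epithelium 3 of 6 were higher at E13.5 (20.2%) and 1, Lgr5, at P0 (17.4%). From E13.5 to E14.5, 3 of 6 genes tested in epithelium were at least 2-fold higher at E14.5 (Lef1, Apcdd1 and Lgr5; 12.1% of all genes) and 0 at E13.5 (4.96%), and in mesenchyme 1 of 10 (Wif1; 6.03%) and 0 (5.88%). Between E14.5 and E15.5, 3 of 8 genes in epithelium were higher at E14.5 (Axin2, Apcdd1 and Fzd10), beside 19.4% of all genes. At E15.5 1 was higher (Wif1, 1 and 27 UMIs), beside 8.07%. The interval of that epithelial Wif1 ratio of E14.5 to E15.5, 0.416 (0.0102 to 2.52), included 1. In mesenchyme 4 of 10 were higher at E14.5 (Sp5, Apcdd1, Lgr5 and Fzd10), beside 1746 of all 11231 genes, and 1 at E15.5 (Wif1; 7.46%). Between E13.5 and E15.5 the members moved both ways, in epithelium 3 of 8 higher at E13.5 (14.8%) and 2 at E15.5 (14.9%), and in mesenchyme 3 of 10 (13.8%) and 2 (8.16%). Epithelial cells nearer to epidermal markers were 65 of 98, 20 of 45 and 173 of 532 at the embryonic stages. Epithelial differences between those stages, and between them and P0, therefore also carry that mix. All 14 E13.5 epithelial Lgr5 UMIs lay in the mammary range described below, among its 559023 UMIs, beside 52 of 2614403 in P0 epithelium. In that range the E13.5 Lgr5 level was thus not below that of P0.

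Within the mesenchyme, each cell was placed with sub-epithelial markers (Esr1, Vcan and Crabp1) or dermal markers (Plagl1 and Cdkn1c), by the list of which it held the larger share of all UMIs in that stage's mesenchyme. With so few markers these are ranges and not cell types. From E13.5 to E15.5 they held 63 and 72, 14 and 17, and 183 and 100 cells, of which 15 and 14, 1 and 2, and 20 and 15 lay near the cut, with the smaller share at least 50% of the larger. On the sub-epithelial side, 7 of the 10 genes were at least 2-fold higher at E13.5 (4.19% of all genes), 7 at E14.5 (6.96%) and 5 at E15.5 (7.85%). On the dermal side the counts were 0 (4.03%), 2 (8.96%) and 2 (7.15%). Lef1, Axin2, Apcdd1 and Wif1 were on the sub-epithelial side at all 3 stages. The study picked the markers of both lists, and Lef1 with them, as genes that differed between its mesenchymal clusters at E15.5. The side of Lef1 at E15.5 is therefore not independent of the lists.

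The target genes differed as follows. Axin2 had 161, 208 and 212 CPM in the sub-epithelial range and 65.5, 67.0 and 60.3 CPM in the dermal range, ratios of 2.47 (1.90 to 3.23), 3.11 (2.02 to 4.87) and 3.52 (2.94 to 4.25). Lef1 had 85.4, 120 and 131 CPM against 11.2, 8.64 and 36.9 CPM, ratios of 7.65 (4.40 to 14.2), 13.9 (5.06 to 53.2) and 3.56 (2.82 to 4.53). Sp5 had 89.2, 82.7 and 19.9 CPM against 11.2, 32.4 and 15.7 CPM, and its ratio went from 7.99 (4.61 to 14.8) and 2.55 (1.34 to 5.08) to 1.26 (0.850 to 1.91). The 2 sides thus differed for Axin2 and Lef1 at each stage, and for Sp5 at E13.5 and E14.5.

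The antagonists split. Apcdd1 was 4.25-fold (3.39 to 5.37), 4.04-fold (3.00 to 5.52) and 2.70-fold (1.27 to 6.61) higher on the sub-epithelial side, and Wif1 3.03-fold (1.62 to 5.95), 4.94-fold (2.23 to 12.4) and 6.005-fold (4.79 to 7.62). Dkk2 was higher on the dermal side at E13.5 and E14.5, with 127 and 261 CPM against 78.9 and 77.3 CPM, and on the sub-epithelial side at E15.5, with 135 against 51.7 CPM. Its ratios of sub-epithelial to dermal level were 0.620 (0.471 to 0.809), 0.296 (0.190 to 0.447) and 2.62 (2.15 to 3.22). Without pericyte-list cells the E15.5 log2 ratio was 1.83 in place of 1.39, and without the top cell on each side the E14.5 value was -5.99 in place of -1.76, so the E14.5 value rests on few cells.

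Rspo1 had 139, 296 and 133 CPM on the sub-epithelial and 60.3, 54.0 and 182 CPM on the dermal side. It was higher sub-epithelially at E13.5 (2.30-fold, 1.75 to 3.06) and E14.5 (5.48-fold, 3.53 to 8.83), but not at E15.5 (ratio 0.734, 0.648 to 0.833). The receptors leaned to the dermal side, Lgr4 with ratios of 0.604 (0.351 to 1.01), 0.653 (0.257 to 1.55) and 0.282 (0.200 to 0.394), and Lgr5 with 0.578 (0.256 to 1.23) at E13.5 and 0.294 (0.192 to 0.446) at E15.5. At E14.5 Lgr5 had 0 UMIs in the 14 sub-epithelial and 24 in the 17 dermal cells. With that 0 set to 3 they were 6.48-fold apart (exact lower limit 4.88). Without pericyte-list cells the Lgr5 log2 values were -0.25, -2.10 (a bound) and -1.42 in place of -0.79, -2.70 and -1.76 over the stages in order. Fzd10 was 5.30-fold (2.98 to 10.0) and 3.17-fold (1.26 to 8.99) higher sub-epithelially at E13.5 and E14.5, with a ratio of 0.883 (0.470 to 1.72) at E15.5.

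**Figure D3:**
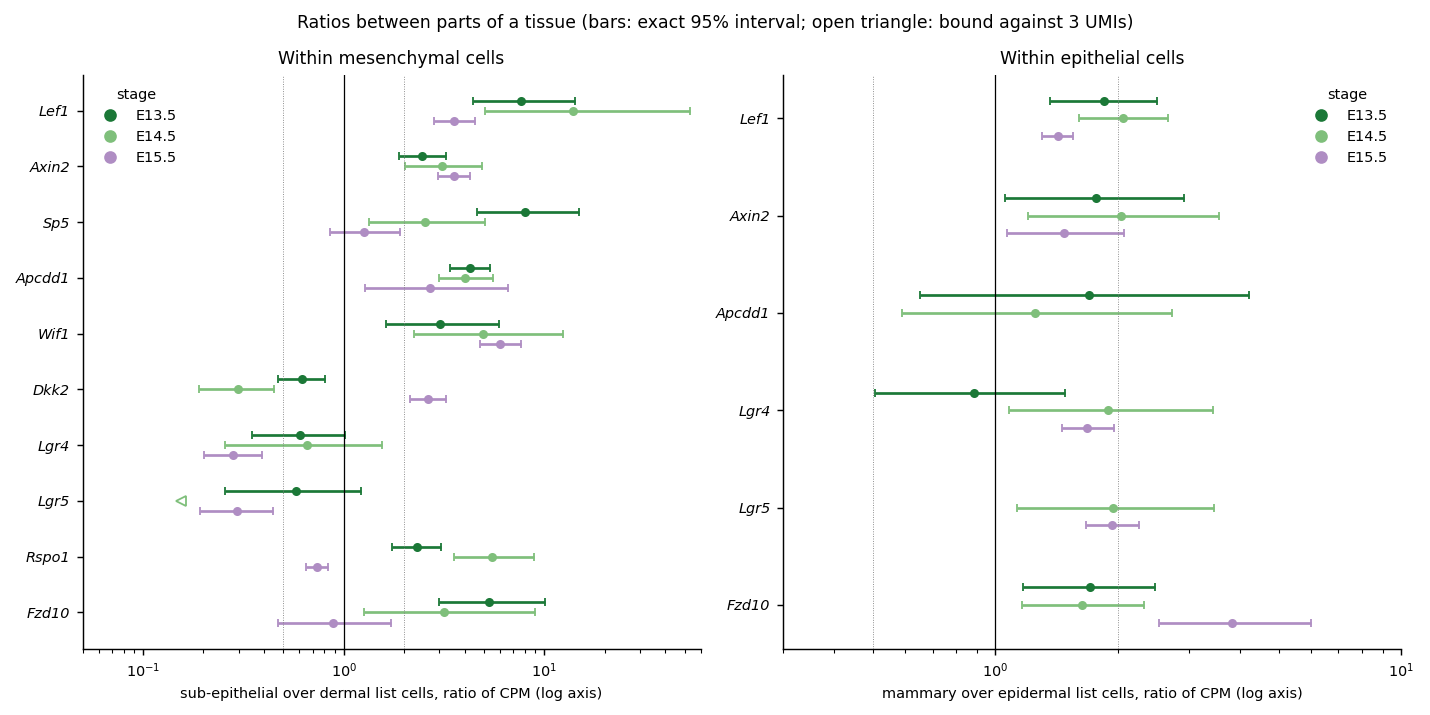
Ratio of CPM between the sub-epithelial and dermal ranges of mesenchymal cells (left) and between the mammary and epidermal ranges of epithelial cells (right), on log axes, for genes with at least 20 UMIs in both ranges together and with 95% intervals as bars (the right panel leaves out genes with few epithelial UMIs, Rspo1 and Wif1 at E15.5 among them). Lef1, Axin2, Apcdd1 and Wif1 lay right of 1 at all 3 stages in mesenchyme, while Dkk2 and Rspo1 lay on different sides of 1 at different stages.

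Within the epithelium, cells nearer to mammary markers (Tbx3, Pthlh, Ndnf, Msx1, Lmo1, Prlr and Elf5) were set against cells nearer to epidermal markers (Krt1, Krt10, Krt15, Krtdap, Sbsn, Col17a1, Lor and Grhl3). The study names Krtdap and Grhl3 among genes of its luminal-like mammary cluster at E15.5. The epidermal range at that stage may therefore hold luminal-like mammary cells as well as skin cells. The mammary and epidermal ranges held 33 and 65, 25 and 20, and 359 and 173 cells from E13.5 to E15.5, with 9 and 16, 6 and 11, and 98 and 53 cells near the cut, and the median depth of the E13.5 ranges differed (15374 and 22128 UMIs). Fewer genes were at least 2-fold apart than in the mesenchyme. Some were further apart here, among them Fzd10 at E15.5, with a ratio of 3.83 against 0.883 in mesenchyme. Lgr5 at E13.5, under the UMI minimum here with 14 and 0 UMIs, was another, with 0.578 in mesenchyme. At E13.5, 0 of the 5 genes tested were at least 2-fold higher in the mammary range (6.76% of all genes), at E14.5 2 of 6 (Lef1 and Axin2; 13.7%) and at E15.5 1 of 7 (Fzd10; 9.12%). In the epidermal range the counts were 0 (6.07%), 0 (6.51%) and 1 (4.06%), the last being Rspo1 on 12 and 13 UMIs with a ratio of 0.474 (0.197 to 1.13). Wif1 at E15.5 had 15 and 12 UMIs, a ratio of 0.641 (0.280 to 1.5003).

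Lef1 had 136, 309 and 211 CPM in the mammary range and 73.5, 150 and 148 CPM in the epidermal range, ratios of 1.85 (1.36 to 2.50), 2.06 (1.61 to 2.67) and 1.42 (1.31 to 1.55). The E14.5 mammary range thus held the highest Lef1 level of all ranges and groups. Axin2 followed with ratios of 1.77 (1.06 to 2.92), 2.04 (1.20 to 3.56) and 1.48 (1.07 to 2.08). Lgr5 had 14 UMIs in the mammary and 0 in the epidermal range at E13.5, 12.4-fold apart with that 0 set to 3 (exact lower limit 8.80). Its ratios were 1.95 (1.13 to 3.46) and 1.94 (1.67 to 2.26) at E14.5 and E15.5. Fzd10 had 87.7, 146 and 20.5 CPM in the mammary range and 51.3, 89.1 and 5.37 CPM in the epidermal range, so its ratio was 1.71 (1.17 to 2.48), 1.64 (1.16 to 2.32) and 3.83 (2.53 to 6.01). Lgr4 had ratios of 0.884 (0.505 to 1.49), 1.90 (1.08 to 3.44) and 1.68 (1.46 to 1.96).

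At E15.5 all epithelial cells were also set along early basal markers (Cxcl14, Pthlh and Ndnf) against luminal ones (Anxa1, Lgals3, Plet1 and Ly6d). The sides held 324 and 205 cells, with 46 and 40 near the cut and 3 placed with neither. The study removed skin cells and described a hybrid cluster at this stage, but this split left out neither. Its sides are therefore not the study's basal-like and luminal-like clusters, and the part of skin cells in the differences was not tested. Of 7 genes tested, 1 was at least 2-fold higher on the basal side (8.19% of all genes) and 1 on the luminal side (3.75%; Rspo1, 10 against 15 UMIs). The basal one was Fzd10, with 21.9 against 6.06 CPM, 3.61-fold (2.50 to 5.33). Lef1 (213 and 155 CPM), Lgr4 (85.4 and 52.0 CPM), Lgr5 (84.9 and 56.8 CPM) and Axin2 (15.7 and 11.3 CPM) were all higher on the basal side, by 1.38-fold (1.27 to 1.496), 1.64-fold (1.43 to 1.89), 1.495-fold (1.31 to 1.71) and 1.40-fold (1.03 to 1.91). Pthlh and Ndnf are also in the mammary list, and the epidermal list holds Krtdap and Grhl3 of the study's luminal-like cluster. The basal and mammary splits are therefore not independent.

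Setting the mammary range directly against the sub-epithelial range compared the ranges on each side of the tissue border. At E15.5 the mammary range was 11.1-fold (8.06 to 15.6) higher in Lgr5, 6.98-fold (5.36 to 9.23) in Lgr4, 3.23-fold (2.22 to 4.86) in Fzd10 and 1.61-fold (1.47 to 1.76) in Lef1. The sub-epithelial range was 13.7-fold (11.5 to 16.3) higher in Axin2, 105-fold (59.7 to 204) in Rspo1, 138-fold (83.2 to 247) in Wif1 and 213-fold (97.4 to 583) in Dkk2. At E13.5, 9 UMIs of Apcdd1 in mammary range cells stood against 337, a difference of 19.7-fold (10.2 to 43.4). Axin2 was 3.22-fold (2.15 to 4.995) and 2.92-fold (2.00 to 4.29) higher in the sub-epithelial range at E13.5 and E14.5. Against the dermal range, mammary range Axin2 had ratios of 0.765 (0.481 to 1.18), 1.07 (0.661 to 1.74) and 0.258 (0.203 to 0.329) from E13.5 to E15.5.

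At P0 the values left were small. Of the epithelial cells, 29 were nearer to contractile basal markers (Acta2, Myh11, Mylk and Cnn1) and 195 nearer to luminal ones. Of 3 genes tested, 1 was at least 2-fold higher on the basal side (6.15% of all genes) and 1 on the luminal side (19%). Lgr4 had 60.5 CPM on the basal and 27.1 CPM on the luminal side, 2.24-fold (1.26 to 3.80). Apcdd1 had 1 and 21 UMIs, a basal to luminal ratio of 0.342 (0.00827 to 2.13), and Lgr5 had 28.7 and 18.6 CPM (1.54, 0.659 to 3.21). Lgr4 on the basal side was thus the 1 difference here whose interval left out 1.

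In P0 mesenchyme Lgr5 was found mostly in 1 of 3 fibroblast ranges, on few UMIs. In the Eln, Pi16 and Col15a1 ranges named next, 26, 20 and 15 cells lay near the cut, and 5 cells were in no range. The split includes the pericyte-list cells, which held 5 of the 26 mesenchymal Lgr5 UMIs. The 81 cells nearer to Eln, Mfap4 and Mgp had 27.2 CPM (19 UMIs), the 99 cells nearer to Pi16, Dpp4 and Sema3c 5.85 CPM (6 UMIs) and the 88 cells nearer to Col15a1, Fabp4 and Pparg 1.32 CPM (1 UMI). The Eln range was 4.65-fold (1.78 to 14.2) above the Pi16 range, where 5.89% of all genes were at least 2-fold higher (7.21% the other way), and 20.5-fold (3.27 to 853) above the Col15a1 range, where 4.67% were (5.27% the other way). In these comparisons Lgr5 was 1 of 2 members tested, and between the Pi16 and Col15a1 ranges the 1 member tested, Lgr4, was 2-fold apart in neither direction (8.52% and 6.95% of all genes). Dkk2 (12, 5 and 6 UMIs in the Pi16, Col15a1 and Eln ranges), Lgr4 (33, 14 and 15 UMIs) and Apcdd1 (10, 7 and 8 UMIs) were spread over all 3.

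Whether the genes occurred in the same cells was read after thinning each cell to 5000 UMIs, for pairs with at least 5 cells expected to hold both. In E13.5 mesenchyme 12 of 18 such pairs occurred together more often than their shares would give, with ratios of observed to expected cells of 0.495 to 2.28 (median 1.51). Axin2 and Sp5 had the highest ratio, 17 cells against 7.47. Of 21 cells with Sp5, 81.0% (58.1% to 94.6%) also had Axin2, against 27.2% (19.3% to 36.3%) of the 114 other cells. Sp5 and Apcdd1 (2.07), Lef1 and Axin2 (1.91) and Axin2 and Rspo1 (1.78) followed. Within the sub-epithelial range alone the Axin2 and Sp5 ratio was 1.44 and that of Lef1 and Axin2 1.42. The ratios are a description with no test.

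Dkk2 was below 1 in all its E13.5 pairs, though close to 1 in some. Its ratios were 0.495 with Sp5, 0.554 with Lef1 and 0.577 with Rspo1, on 3, 4 and 5 cells with both genes. With Axin2, Apcdd1 and Fzd10 they were 0.865, 0.893 and 0.962. Within the E13.5 sub-epithelial range Dkk2 had 0.591 with Sp5, 0.864 with Apcdd1 and 1.01 with Axin2. At E15.5 it co-occurred with Lef1 (1.31), Axin2 (1.26) and Wif1 (1.26), but again not with Rspo1, for which 16 cells held both against 31.0 expected (0.516). Of 114 cells with Rspo1, 14.04% (8.24% to 21.8%) had Dkk2, against 36.1% (28.9% to 43.8%) of the 169 others. The low ratio held within each range at E15.5, with 11 cells against 21.6 (0.510) sub-epithelially and 5 against 8.74 (0.572) dermally. In E15.5 mesenchyme 12 of 25 pairs were above 1 (0.355 to 1.44, median 0.931). In E15.5 epithelium 6 of 9 pairs were above 1, led by Lgr4 and Fzd10, with 19 cells against 10.4 (1.82).

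**Figure D4:**
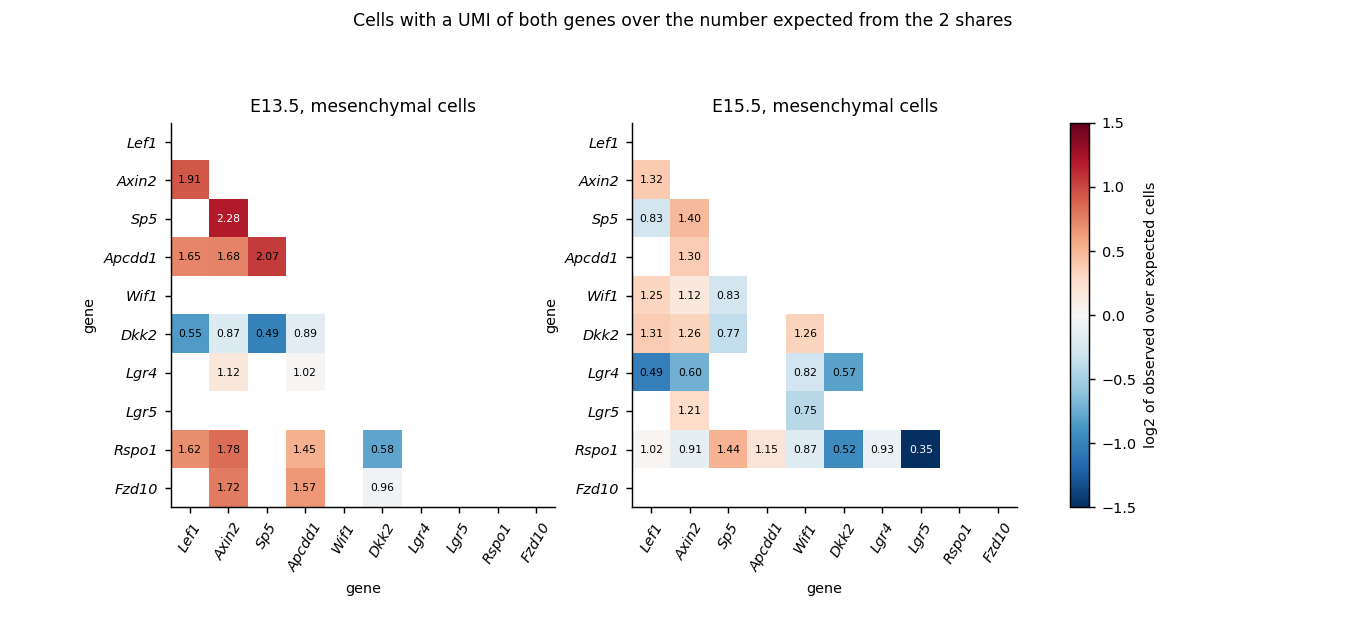
Number of mesenchymal cells with a UMI of both genes over the number expected from their shares, at E13.5 and E15.5, after thinning each cell to 5000 UMIs; the numbers give the ratio, the colour its log2 value, and pairs with under 5 expected cells are blank. The pairs shown among Axin2, Sp5, Apcdd1 and Lef1 lay above 1 at E13.5 and Dkk2 with Rspo1 below 1 at both stages.

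Other genes of the pathway, listed by role, gave the following picture between the tissues. The counts should be read beside all genes tested, of which 10.3%, 14.7%, 16.8% and 24.7% were at least 2-fold higher in epithelium and 21.9%, 17.5%, 22.5% and 18.9% in mesenchyme from E13.5 to P0. Of 11 frizzleds and co-receptors, 9, 7, 10 and 10 passed the UMI minimum from E13.5 to P0, and 1, 2, 3 and 2 of these were at least 2-fold higher in epithelium and 2, 2, 3 and 5 in mesenchyme. Fzd6 was epithelial at all stages (18.1-fold, 19.1-fold, 16.5-fold and 6.52-fold) and Fzd2 mesenchymal (4.42-fold, 3.80-fold, 3.13-fold and 25.4-fold). Fzd4 (12.3-fold at E13.5, 5.30-fold at E15.5 and 17.3-fold at P0) was also mesenchymal. Fzd1 was 5.06-fold higher in mesenchyme at E14.5 with a ratio of epithelium to mesenchyme of 0.863 (0.608 to 1.22) at E13.5, and Fzd8 was 3.96-fold higher at P0.

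Of 13 secreted antagonists and their Kremen co-receptors, 7, 7, 9 and 6 passed, with 2, 4, 1 and 1 higher in epithelium and 4, 2, 5 and 3 in mesenchyme. Sfrp2, which binds Wnts, was mesenchymal at all stages (6.11-fold, 5.41-fold, 2.08-fold and 34.8-fold), as was Sfrp1 before birth (30.4-fold, 42.5-fold and 9.11-fold). Sfrp4 was 71.9-fold (12.5 to 2882; 1 epithelial UMI) higher in P0 mesenchyme. Kremen2, a receptor for Dkk proteins, was epithelial (24.7-fold, 107-fold and 19.9-fold at the embryonic stages) and had 0 UMIs at P0.

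Of the 6 other genes of the R-spondin axis, 4, 4, 5 and 2 passed, with 2, 3, 3 and 1 higher in epithelium and 1, 1, 2 and 1 in mesenchyme. The ligands were mesenchymal, Rspo3 by 16.0-fold, 15.2-fold, 116-fold and at least 14.2-fold, and Rspo4 by at least 26.3-fold at E15.5. The receptor Lgr6 (10.0-fold, 16.8-fold and 2.42-fold) and the ubiquitin ligase Rnf43, which removes Frizzled receptors (32.2-fold, 29.3-fold and 27.9-fold), were epithelial before birth. The ligand and receptor sides of the axis thus had the same placement as Rspo1 and, at E15.5, Lgr4 and Lgr5.

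Of 8 further targets and TCF factors, 8, 7, 8 and 7 passed, and 0, 0, 0 and 3 were higher in epithelium against 5, 3, 6 and 2 in mesenchyme. The feedback antagonist Nkd1 was mesenchymal by 5.10-fold, 1.85-fold, 9.33-fold and 15.6-fold, Bambi by 3.50-fold, 3.53-fold, 2.79-fold and 6.78-fold, and Nkd2 by 19.5-fold at E13.5 and 15.6-fold at E15.5. Ccnd1, a cyclin with many inputs, was 10.1-fold, 4.10-fold and 4.34-fold higher in mesenchyme before birth, but 2.86-fold (2.18 to 3.80) higher in epithelium at P0, where Nkd2 was 5.52-fold (1.88 to 21.9) higher in epithelium as well. Of 15 core and secretion genes, 14, 14, 15 and 14 passed, with 0, 1, 0 and 1 higher in epithelium and 2, 1, 2 and 3 in mesenchyme. Ctnnb1, which encodes beta-catenin, was 1.497-fold, 2.24-fold, 1.95-fold and 2.29-fold higher in epithelium, and Pygo1, a co-activator, was 6.06-fold, 4.67-fold, 4.14-fold and at least 12.2-fold higher in mesenchyme. Bcl9l was 2.45-fold (E15.5) and 3.27-fold (P0) and Dvl2 2.43-fold (E13.5) higher in mesenchyme.

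**Figure D5:**
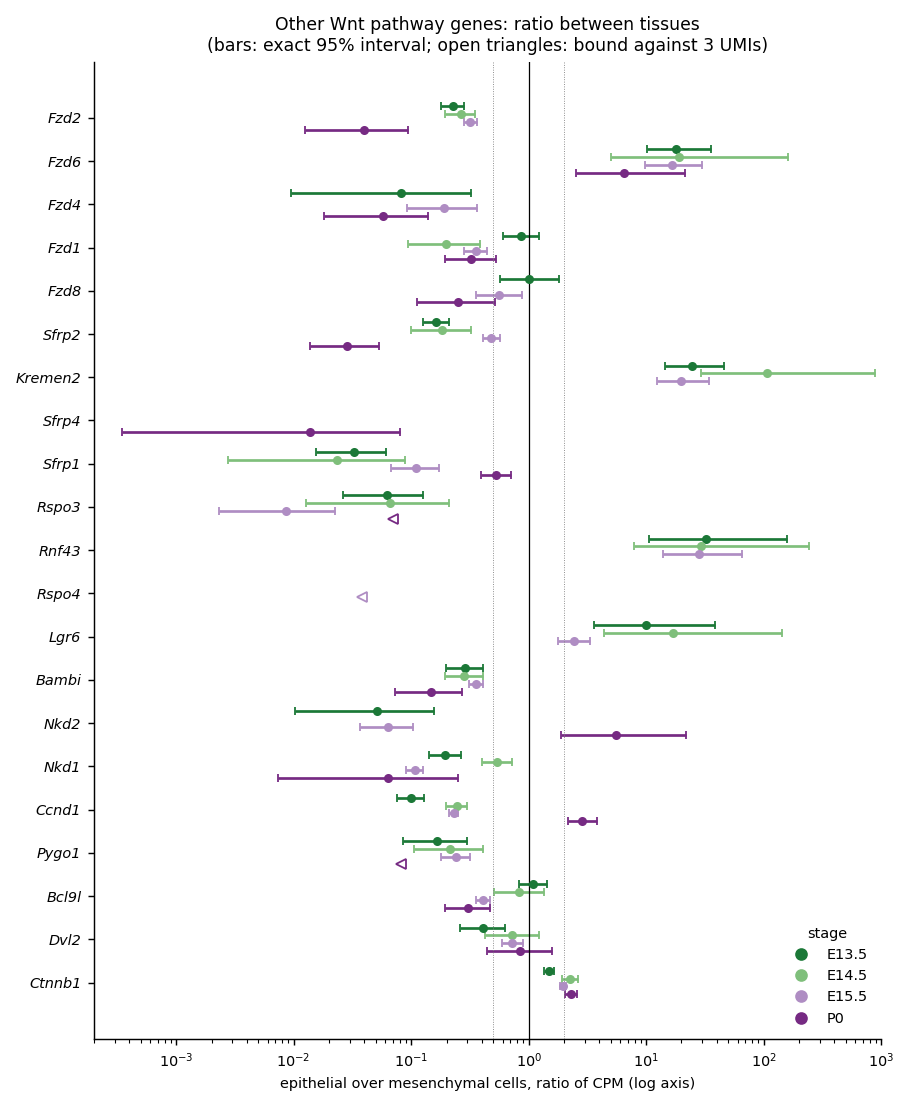
Ratio of the epithelial to the mesenchymal level (CPM, log axis) of other Wnt pathway genes at each stage, with 95% intervals as bars and open triangles for bounds against 3 UMIs. The R-spondin ligands Rspo3 and Rspo4 lay left of 1 and Lgr6 and Rnf43 right of it, while the target Ccnd1 lay left of 1 before birth and right of it at P0.

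Genes with a pattern most like that of Axin2 and Lef1 were sought by Pearson correlation of log2(CPM + 10) over the 8 groups of stage and tissue, among 9579 genes. The 5 highest for Axin2 were Maz (0.983), Trim44 (0.978), C1d (0.977), Notum (0.972) and Nkd1 (0.972), of which Notum and Nkd1 are Wnt feedback antagonists. For Lef1 they were C330007P06Rik (0.980), Igf2bp1 (0.975), Mnt (0.973), Ubxn7 (0.971) and Gigyf1 (0.967). The 8 groups come from 4 libraries, so these values describe likeness only.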

How the data were processed

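Single-cell 3′ libraries of sorted cells were made from 4 stages, with 1 library each. The deposited tables hold raw UMI counts per gene and cell; the authors aligned reads to mm10 with Cell Ranger (6.0.0 in the submitters' processing notes and in 3 table headers, 3.1.0 in the E15.5 header) and did not normalize these counts. Of 981, 807, 2642 and 1466 barcodes, 1630 in all were kept; 1, 1, 2 and 0 were shared with other libraries. Doublets were removed by sorting per the labels; no caller was run, and 16, 1, 16 and 18 kept cells had a smaller marker sum of at least 10% of the larger. Counts were summed over cells and given per 1000000 UMIs (CPM) with exact Poisson intervals, ratios with exact conditional binomial intervals and shares with exact binomial intervals (Python 3.11.15, numpy 2.4.6, scipy 1.17.1, pandas 2.3.3). Genes were called by size, at least 2-fold, among those with at least 20 UMIs over both groups; 0 counts were set to a floor of 3, and with 1 to 3 counts the ratio is given with its interval. On simulated counts for the E13.5 tissues (10598 genes, 200 changed 4-fold), 100% of changed and 1.91% of unchanged genes were called, and 95.83% of 8561 true ratios lay within their intervals. These counts were drawn from the Poisson model that the intervals assume. They check the calculation only and leave out the uneven spread of UMIs over cells. Text names all 10 members and, of each pathway list, genes 2-fold apart one way at all stages plus up to 3 with the largest ratio; members and lists were chosen with earlier results of these data known. Alternatives covered cell filters, thinning, scaling, tissue rules, the UMI minimum, gene matching and removal of groups of cells.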

Additional observations from a re-analysis of the deposited data

Results flagged for a closer look

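These 3 patterns went opposite ways at different stages, and none of the differences between stages was tested, since each stage is 1 library. The ratio of epithelial to mesenchymal Lgr5 was 0.472 at E13.5, against 1.73, 5.34 and 1.92 at the later stages in order. The E13.5 value rests on few cells, with 97.1% of 35 mesenchymal UMIs in 14 cells. Without pericyte-list cells the E13.5 log2 value of Lgr5 was -0.78 in place of -1.08. Mammary range cells alone had an E13.5 Lgr5 ratio of 2.42 to the sub-epithelial and 1.40 to the dermal range. The ratio of sub-epithelial to dermal Dkk2 in mesenchyme was 0.62 at E13.5 and 0.296 at E14.5 but 2.62 at E15.5. The ratio of sub-epithelial to dermal Rspo1 was 2.3 at E13.5 and 5.48 at E14.5 but 0.734 at E15.5.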

How the results depend on the processing

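No paired analysis was possible because the stages share fewer than 2 replicate numbers and the results come from no test; the tissues share a library at each stage, and their ratios are within it. Of 408 tissue ratios recomputed over the alternatives, 389 stayed within their interval and 19 moved further. Of 432 stage ratios 27 moved, and of 691 ratios within a tissue 31 moved. Changes of sign, here and below, were counted only for ratios at least 2-fold apart in the main setting. They numbered 0 between tissues, 0 between stages and 6 within a tissue. Dropping the UMI minimum per gene could not move a ratio, and matching genes by symbol moved 0. Each adds 34 tissue, 36 stage and 63 within-tissue ratios to the totals. Thinning each cell to 5000 UMIs moved most, at 12 of 34, 12 of 36 and 16 of 61. Counts that moved beyond a set fold limit were small. Larger counts also changed within that limit. After thinning, genes higher in mesenchyme were 5 in place of 7 at E13.5, 4 in place of 6 at E14.5 and 5 in place of 6 at E15.5. Mesenchymal genes higher at E15.5 than at P0 were then 6 in place of 7. Genes higher in E13.5 epithelium were 1, but 0 after thinning, with the mean of cells' CPM, with tissue set by Epcam, Cdh1 and Cldn7 against Pdgfra, Lum and Dcn, without cells with both marker lists or without pericyte-list cells, and 2 with median-of-ratios scaling. Genes higher in P0 epithelium were 0, but 1 with a minimum of 3000 UMIs, after thinning, with no UMI minimum per gene, without each gene's top cell or without pericyte-list cells; those higher in P0 mesenchyme were 1, but 0 after thinning or without the top cell and 2 with no minimum. In epithelium, genes higher at E15.5 than at E13.5 were 2, but 1 with a mitochondrial maximum of 10%; those higher at E13.5 than at E15.5 were 3, but 5 with no minimum; and those higher at P0 than at E15.5 were 1, but 2 with the 10% maximum, with a clear tissue margin or without cells with both lists, 0 after thinning and 3 with no minimum. In mesenchyme, genes higher at E15.5 than at E13.5 were 2, but 1 after thinning or with the mean of cells' CPM. Log2 ratios that changed sign were those of Apcdd1 between P0 basal and luminal cells, to 1.33 after thinning and 0.40 without the top cell; of Rspo1 between E15.5 mammary and epidermal cells, to 0.19 with a clear tissue margin, 0.20 without cells with both lists and 0.48 without the top cell; and of Rspo1 between E15.5 basal and luminal cells, to 0.024 without the top cell. All 6 rest on 25 UMIs or fewer, and the cause was not tested. The removal of cells with both marker lists, of each gene's top cell and of pericyte-list cells was added after the data were seen. The 31 mesenchymal cells at E14.5 and the depth of the P0 cells limit what those groups can show.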
